A study of Homo sapiens with 4 samples.

Results

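The genes described here are 10 core components of the Notch pathway, taken by gene symbol from a table of 56595 symbols measured in differentiating human embryonic stem cells: the receptors NOTCH1, NOTCH2 and NOTCH3, the ligands DLL1, DLL3, JAG1 and JAG2, the glycosyltransferase LFNG and the transcriptional targets HES1 and HEY1. All 10 symbols were found in the table. Notch is a cell surface receptor that is cleaved after it binds a Delta or Jagged ligand on a neighbouring cell, and its freed intracellular part enters the nucleus, joins the DNA-binding protein RBPJ and switches on repressor genes of the HES and HEY families. In early mesoderm the pathway is best known from the presomitic mesoderm, where DLL1, DLL3, LFNG and HES7 take part in the segmentation clock, and at later stages it is needed for hematopoietic stem cells to arise from hemogenic endothelium.

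The cells came from H1, a human embryonic stem cell line, at day 2 of hematopoietic differentiation, when BMP4 and activin A in the medium drive pluripotent cells towards mesoderm. Both groups received these 2 factors. The DMSO group (2 libraries) had no inhibitor, and the IWP2 group (2 libraries) received IWP2, which blocks the acyltransferase Porcupine and so the secretion of Wnt proteins, and the comparison asks what the cells express when their own Wnt signal is blocked. The groups come from a single line, and the labels do not say whether replicates are separate cultures, so p-values measure only the spread between these samples.

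The values are FPKM (fragments per kilobase of transcript, scaled to the number of fragments sequenced), which can be compared between genes as levels per length. The steps between low values gave an estimated depth of 18500000 to 22800000 fragments per library. Differences are on the log2(FPKM + 1) scale, IWP2 minus DMSO, and a gene was called when its adjusted p in limma was under 0.05. Of 14010 genes with a mean of at least 1 FPKM, 15.2% were called, 6.77% higher and 8.45% lower with IWP2. As a check of the inhibitor, 9 of 11 Wnt target and feedback genes were lower with IWP2 and the other 2 were not called. This list and the marker lists below were chosen with earlier results of these data known, so their counts are no independent check. LEF1, SP5, DKK1 and LGR5 reached the minimum mean only through the DMSO libraries. The 9 include SP5, a direct Wnt target, at 47.0 to 53.2 FPKM in DMSO and 0.363 to 0.379 with IWP2. As a check of the cells, all 9 nascent mesoderm markers were lower with IWP2 (summed level 1130 to 1438 FPKM in DMSO and 151 to 173 with IWP2), as were 5 of 6 definitive endoderm markers (1917 to 2307 and 126 to 137 FPKM, or 259 to 306 and 87.6 to 103 FPKM without CER1). Of 8 pluripotency markers, 5 were higher and 1 was lower (1282 to 1453 FPKM in DMSO, and 2623 FPKM in each IWP2 library, or 703 to 711 and 768 to 779 FPKM without POU5F1). SOX2, the largest difference of this list, was at 0.174 to 0.193 and 35.6 to 36.1 FPKM. The lower one was TDGF1 (203 and 221 FPKM in DMSO, 103 and 98.6 with IWP2), and NANOG and LIN28A were not called. Endothelial markers summed to 60.2 to 66.3 and 39.7 to 41.4 FPKM (5.96 to 6.99 and 2.75 to 4.06 FPKM without KDR), with 2 of the 3 tested lower. Neuroectoderm markers summed to 57.7 to 62.1 and 3.38 to 3.39 FPKM, nearly all of it from OTX2, and SOX1 was at or near 0 in every library. No marker on these lists was at 0 in every library. MESP1, PDGFRA, SNAI2, FOXA2, HHEX and TIE1 reached the minimum mean only through the DMSO libraries, and SOX2 only through the IWP2 libraries. These marker levels differ between the same groups as every result below, and their part in those results was not tested. In bulk RNA, fewer cells of a type and less RNA per cell cannot be told apart.

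The Notch genes showed 1 very large difference and otherwise small ones. DLL3 fell to under 1 FPKM with IWP2 and NOTCH3 was modestly higher, while NOTCH1, NOTCH2, JAG1, JAG2, LFNG, HES1 and HEY1 were not called and DLL1 was too low to test. Thus 2 of the 9 tested members were called (22.2%, beside 15.2% of all genes). DLL3, 1 of these 2, reached the minimum mean only through the DMSO libraries. In 7 of the 9 the 2 groups did not overlap, 5 higher and 2 lower with IWP2, but so it was for 59.9% of all genes tested (27.9% higher and 31.9% lower). The median difference over the 9 was 0.17, beside -0.02 over all genes.

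**Figure D1:**
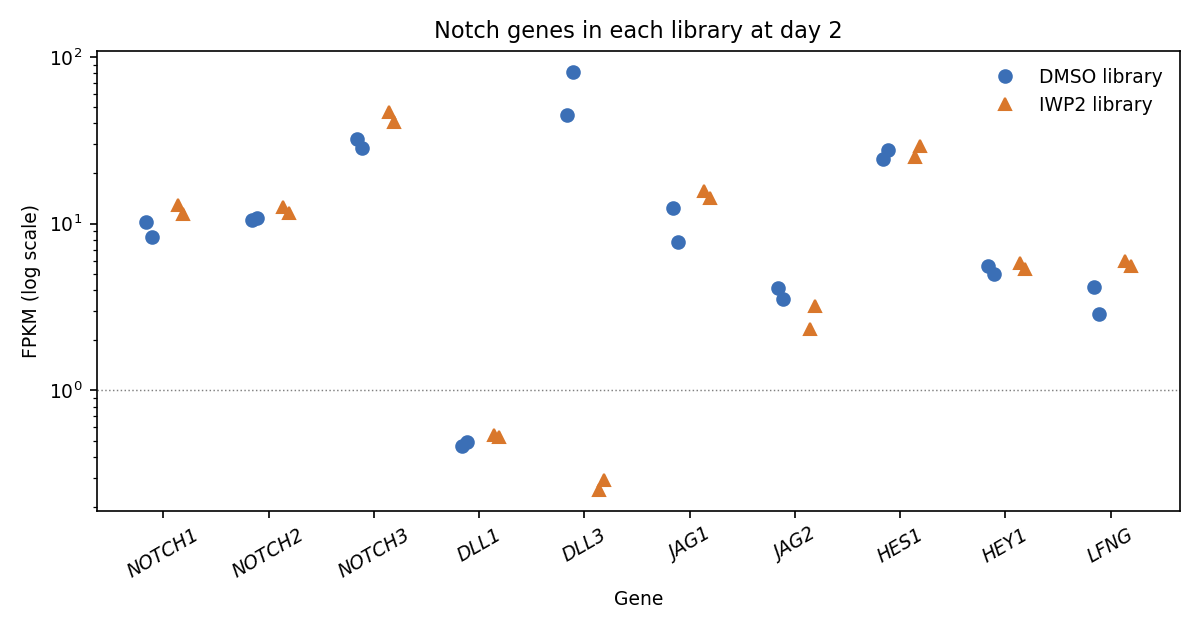
FPKM on a log axis of each of the 10 Notch genes in the 2 DMSO libraries (circles) and the 2 IWP2 libraries (triangles), with a dotted line at 1 FPKM, the minimum mean for testing. DLL3 drops from 44.9 and 81.6 to 0.254 and 0.292 FPKM, DLL1 stays under 1 FPKM in all 4 libraries, and the other 8 genes stay between 2.33 and 46.9 FPKM.

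Among the receptors, NOTCH3 was the most abundant in every library and the only receptor called. NOTCH3 (ENSG00000074181.8, chr19:15159038-15200981), best known for its role in vascular smooth muscle, had 32.4 and 28.4 FPKM in DMSO and 46.9 and 40.5 FPKM with IWP2. The IWP2 libraries were both above the DMSO libraries, by 1.44-fold on the group means (1.25 to 1.65 over pairs of libraries). The difference was 0.51 with a standard error (SE) of 0.12 and an adjusted p of 0.0452 (limma). This call was close to the threshold: it was lost in each of the 4 fits that left out a library (adjusted p = 0.0804 without DMSO replicate 1, 0.155 without DMSO replicate 2, 0.236 without IWP2 replicate 1 and 0.137 without IWP2 replicate 2), with no filter on low values (0.149) and without the mean-variance trend (0.0789).

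NOTCH1 (ENSG00000148400.9, chr9:136494444-136545862), the receptor needed for the emergence of hematopoietic stem cells, had 10.2 and 8.30 FPKM in DMSO and 12.9 and 11.4 FPKM with IWP2. The groups did not overlap, but the difference of 0.36 (SE 0.14) did not pass (limma adjusted p = 0.155), and it was 0.23 without DMSO replicate 2. NOTCH2 (ENSG00000134250.19, chr1:119911553-120069626) had 10.5 and 10.8 FPKM in DMSO and 12.6 and 11.6 FPKM with IWP2, a difference of 0.17 (SE 0.10) with a limma adjusted p of 0.353. NOTCH2 shares near-identical sequence with NOTCH2NL, listed at 1.80 to 3.74 FPKM, so reads may have been split between them and its value is uncertain. NOTCH4, the endothelial receptor, was at 0.15 and 0.114 FPKM in DMSO and 0.0281 and 0.0656 FPKM with IWP2. NOTCH3 led the receptor pool in both groups. It made up 59.7% to 60.7% of the summed FPKM of the 4 receptors in DMSO and 63.7% to 64.8% with IWP2. The sum itself was 53.3 and 47.6 FPKM in DMSO and 72.4 and 63.6 FPKM with IWP2. Whether the receptors differed from each other in their response was not tested.

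The ligands differed in composition between the groups. DLL3 (ENSG00000090932.10, chr19:39498895-39508481) encodes a divergent Delta protein that stays largely inside the cell, does not activate Notch on neighbouring cells and can inhibit it in its own cell, and its loss causes vertebral segmentation defects. It had 44.9 and 81.6 FPKM in DMSO and 0.254 and 0.292 FPKM with IWP2. Every DMSO library was thus far above every IWP2 library, 232-fold on the means and between 154-fold and 322-fold over pairs of libraries. The difference was -5.60 (SE 0.28, 95% confidence interval -6.31 to -4.88), with a limma adjusted p of 0.000647. Only 6 of 14010 genes, DLL3 included, had a difference of this size or larger in either direction, and all 6 were lower with IWP2. DLL3 reached the minimum mean for testing only through the DMSO libraries, where it is high. For a transcript of 2332 bases, the longest coding one annotated, the values stand for about 2160 and 3513 fragments in DMSO and 13 in each IWP2 library, so that a low level remained measurable. The DMSO libraries themselves differed by more than the IWP2 libraries did (SD 26.0 and 0.0273 FPKM), and the difference was -6.02 without DMSO replicate 1 and -5.17 without DMSO replicate 2. DLL3 stayed called in all 11 alternative fits, with adjusted p-values from 0.000234 to 0.0423.

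DLL1 (ENSG00000198719.8, chr6:170282206-170306565), the Delta ligand that activates Notch in presomitic mesoderm, was low in all libraries, at 0.465 and 0.487 FPKM in DMSO and 0.542 and 0.529 FPKM with IWP2. It fell below the minimum mean for testing, and the values, which do not overlap, differ by 1.12-fold. They correspond to about 29 to 39 fragments of a 3174-base transcript. The annotated DLL1 span overlaps FAM120B, at 2.12 to 3.15 FPKM, and no use of strand in the counting is stated, so that reads of the overlap cannot be told apart. DLL4, the endothelial Delta ligand, ranged from 0.0127 to 0.310 FPKM, with overlapping groups.

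JAG1 (ENSG00000101384.11, chr20:10637684-10674107), a Jagged ligand known from heart and vessel development, had 12.4 and 7.79 FPKM in DMSO and 15.6 and 14.3 FPKM with IWP2. The groups did not overlap, but the DMSO libraries were wide apart, and the difference of 0.56 (SE 0.21) did not pass (limma adjusted p = 0.156). It passed when DMSO replicate 1 was left out (0.86, adjusted p = 0.0418), and was 0.25 without DMSO replicate 2. JAG2 (ENSG00000184916.8, chr14:105140981-105168824), the second Jagged ligand, had 4.09 and 3.54 FPKM in DMSO and 2.33 and 3.22 FPKM with IWP2, a difference of -0.36 (SE 0.18) with a limma adjusted p of 0.256, and of -0.19 without IWP2 replicate 1. JAG1 and JAG2 thus lay on opposite sides of 0, with neither called. The spans of JAG2 and NOTCH1 overlap the unnamed transcripts AL512356.1 and AL592301.1, listed at up to 0.408 and 0.979 FPKM.

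As shares of the summed FPKM of DLL1, DLL3, DLL4, JAG1 and JAG2, DLL3 made up 72.5% and 87.1% in DMSO and 1.35% and 1.57% with IWP2. The share of JAG1 was 20.0% and 8.31% in DMSO and 83.3% and 77.0% with IWP2, although its own level was not called. Without DLL3, the ligands summed to 17.0 and 12.1 FPKM in DMSO and 18.5 and 18.3 FPKM with IWP2.

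**Figure D2:**
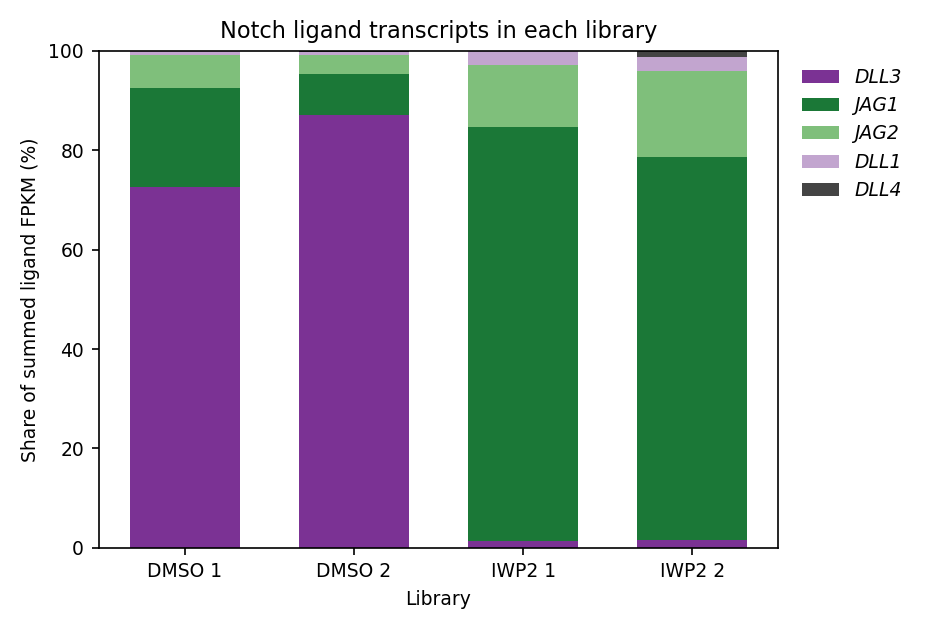
Stacked bars of the share (%) of each Notch ligand in the summed FPKM of the 5 ligands, 1 bar for each library and no error bars. DLL3 takes 72.5% and 87.1% of the 2 DMSO bars and 1.35% and 1.57% of the IWP2 bars, where JAG1 takes 83.3% and 77.0%.

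LFNG (ENSG00000106003.12, chr7:2512529-2529177) encodes Lunatic fringe, a Golgi enzyme that adds N-acetylglucosamine to O-fucose on Notch and thereby shifts which ligands the receptor answers to. It had 4.18 and 2.86 FPKM in DMSO and 5.96 and 5.57 FPKM with IWP2. Both IWP2 libraries were higher than both DMSO libraries, but the difference of 0.60 (SE 0.18) did not pass (limma adjusted p = 0.0935, and 0.0608 to 0.346 with each library left out). It was 0.39 without DMSO replicate 2. Of the 6 other genes for enzymes that place sugars on Notch, 5 were tested. GXYLT1, a xylosyltransferase, was lower (10.9 and 11.7 FPKM in DMSO, 6.85 and 6.35 with IWP2, a difference of -0.69, limma adjusted p = 0.0172). POFUT1, which adds the O-fucose itself, POGLUT1, RFNG and XXYLT1 were not called.

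Neither target, HES1 or HEY1, was called. HES1 (ENSG00000114315.3, chr3:194136145-194138732), the general Notch target and a repressor of differentiation genes, had 24.5 and 27.6 FPKM in DMSO and 25.2 and 29.2 FPKM with IWP2. HEY1 (ENSG00000164683.16, chromosome 8), a target in endothelium and heart, had 5.61 and 5.002 FPKM in DMSO and 5.83 and 5.33 FPKM with IWP2. The groups overlapped for both genes, and they are the only tested members for which they did. The difference was 0.06 (SE 0.12, 95% confidence interval -0.24 to 0.36) for HES1. It was 0.06 (SE 0.13, 95% confidence interval -0.27 to 0.39) for HEY1, with limma adjusted p-values of 0.781 and 0.793. The intervals leave room for a change of up to about these bounds in either direction. HES1 turned slightly negative without DMSO replicate 1 (-0.03) or IWP2 replicate 2 (-0.04), and HEY1 without DMSO replicate 2 (-0.01).

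Of 5 other target and feedback genes that were tested, HEY2 was lower, NRARP was higher and 3 were not called. HEY2, a HEY repressor of heart and artery development, had 10.3 and 11.9 FPKM in DMSO and 1.77 and 2.01 FPKM with IWP2, a difference of -2.06 (SE 0.14, limma adjusted p = 0.00144). Its annotated span overlaps the transcript AL365259.1, listed at up to 0.703 FPKM. NRARP, a small ankyrin repeat protein that dampens Notch and stabilizes the Wnt effector LEF1, had 3.31 and 3.81 FPKM in DMSO and 9.74 and 10.9 FPKM with IWP2, a difference of 1.31 (SE 0.13, limma adjusted p = 0.00445). NRARP lost its call without IWP2 replicate 1 (adjusted p = 0.0667), without IWP2 replicate 2 (0.0823) and with no filter on low values (0.0554). HES4 had 4.11 and 3.51 FPKM in DMSO and 4.95 and 5.01 FPKM with IWP2 and was not called (0.32, limma adjusted p = 0.198). The clock gene HES7 was under 1 FPKM, at 0.424 and 0.348 FPKM in DMSO and 0.0999 and 0.112 FPKM with IWP2, and HES5, the neural target, was listed at 0 in every library. DTX1 and HES6 were not called either.

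The sequences just before the RefSeq start of 3 target genes that behaved differently are shown to place them beside these values: HES1 (not called), HEY2 (lower) and NRARP (higher). They are the 250 bases before the annotated start, from RefSeq on GRCh38.p14 (chr3:194135898-194136147, plus strand; chr6:125749382-125749631, plus strand; chr9:137302272-137302521, minus strand), read 5′ to 3′ in the direction of the gene. For all 3 genes the RefSeq start differs from that of the FPKM values. The HES1 window reaches just into the span given above, and the NRARP window stops just short of its span (chr9:137300482-137302251). For HEY2 the window lies inside the span listed with the FPKM values (chr6:125747664-125761269). Capitals mark TGGGAA or its reverse complement TTCCCA, the core letters bound by RBPJ.
HES1: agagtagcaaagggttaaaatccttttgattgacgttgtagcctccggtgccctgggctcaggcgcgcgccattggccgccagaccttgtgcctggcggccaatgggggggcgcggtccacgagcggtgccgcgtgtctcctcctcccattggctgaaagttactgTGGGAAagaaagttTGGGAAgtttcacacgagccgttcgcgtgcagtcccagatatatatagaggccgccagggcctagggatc
HEY2: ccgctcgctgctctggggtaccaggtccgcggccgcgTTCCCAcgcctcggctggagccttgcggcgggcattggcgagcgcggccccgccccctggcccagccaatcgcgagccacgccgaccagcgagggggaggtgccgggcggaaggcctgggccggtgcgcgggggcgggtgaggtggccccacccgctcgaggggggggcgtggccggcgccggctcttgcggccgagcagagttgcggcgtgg
NRARP: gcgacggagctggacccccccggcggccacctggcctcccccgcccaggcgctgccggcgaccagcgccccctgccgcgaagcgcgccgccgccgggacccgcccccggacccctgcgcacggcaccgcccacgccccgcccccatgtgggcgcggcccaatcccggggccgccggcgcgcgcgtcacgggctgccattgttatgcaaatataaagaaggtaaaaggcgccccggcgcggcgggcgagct
HES1 held 2 matches, starting 84 and 70 bases before the start, HEY2 held 1 on the reverse strand, 213 bases before the start, and NRARP held none in this window. By comparison, 20.8% of 35116 promoter windows of the same length held at least 1 match. Of the 10 members, 7 had a promoter entry, with 8 windows between them, and of these HES1 and LFNG held a match. DLL1, DLL3 and HEY1 had no entry, so they were searched for neither motif of this paragraph. For LFNG the match was in the window chr7:2517613-2517862, inside its span. The LFNG window chr7:2512279-2512528, next to the start given above, held none. The core of the TCF/LEF motif that carries Wnt signals, CTTTGA, was in none of the 7 nor in HEY2 or NRARP, and in 11.2% of all windows. The search covered both strands, and the 2 motifs share no overlapping match here. A match is a description of letters only.

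The rest of the pathway was described from 56 further genes, of which 43 reached the minimum mean. Of these, 6 were higher and 2 were lower with IWP2, 18.6% in all, near the 15.2% of all genes, and their median difference was 0.05. DNER, a non-canonical ligand known from neurons, was higher, at 0.527 and 0.163 FPKM in DMSO and 1.98 and 1.97 FPKM with IWP2 (1.16, limma adjusted p = 0.0274). It reached the minimum mean only through the IWP2 libraries. Its call was lost without DMSO replicate 2 (adjusted p = 0.0583), IWP2 replicate 1 (0.149) or IWP2 replicate 2 (0.147).

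Among the genes that handle ligand and receptor, MIB2, a ubiquitin ligase for ligand uptake, was higher (32.3 and 33.7 FPKM in DMSO, 45.7 and 41.7 with IWP2, limma adjusted p = 0.0469). Of 9 genes for Notch cleavage, PSEN2, a catalytic subunit of gamma-secretase, was higher (14.3 and 11.7 FPKM, then 21.3 and 19.1, limma adjusted p = 0.0390). FURIN, the protease that cuts the receptor on its way to the surface, was higher as well (41.9 and 36.6 FPKM, then 57.3 and 54.7, limma adjusted p = 0.0297). Genes of this list that were not called include ADAM10, ADAM17, NCSTN, APH1A, APH1B and PSENEN. FBXW7, the ubiquitin ligase subunit that marks the Notch intracellular domain, MYC and cyclin E for destruction, was the only call among 9 turnover genes (9.89 and 10.5 FPKM in DMSO, 17.7 and 16.6 with IWP2, a difference of 0.70, limma adjusted p = 0.0125). Of 13 genes of the nuclear complex and its corepressors, 12 were tested and 0 were called in limma (0 at an unadjusted p under 0.05). RBPJ itself had 26.7 and 23.1 FPKM in DMSO and 30.2 and 26.0 FPKM with IWP2 (0.17, limma adjusted p = 0.428). Its difference depended on each of the 4 libraries: it was 0.06 without DMSO replicate 2 or IWP2 replicate 1 and 0.27 without DMSO replicate 1 or IWP2 replicate 2. GXYLT1, MIB2, PSEN2 and FBXW7 lost their calls in every fit that left out a library, with adjusted p-values from 0.0516 to 0.240, and FURIN in 3 of the 4 (0.0912 to 0.192, all but the fit without DMSO replicate 1). Without the mean-variance trend, MIB2 (0.0884), PSEN2 (0.0602) and FURIN (0.0602) lost theirs. With no filter on low values, the 6 pathway genes called higher and GXYLT1 all did (0.0554 to 0.141).

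**Figure D3:**
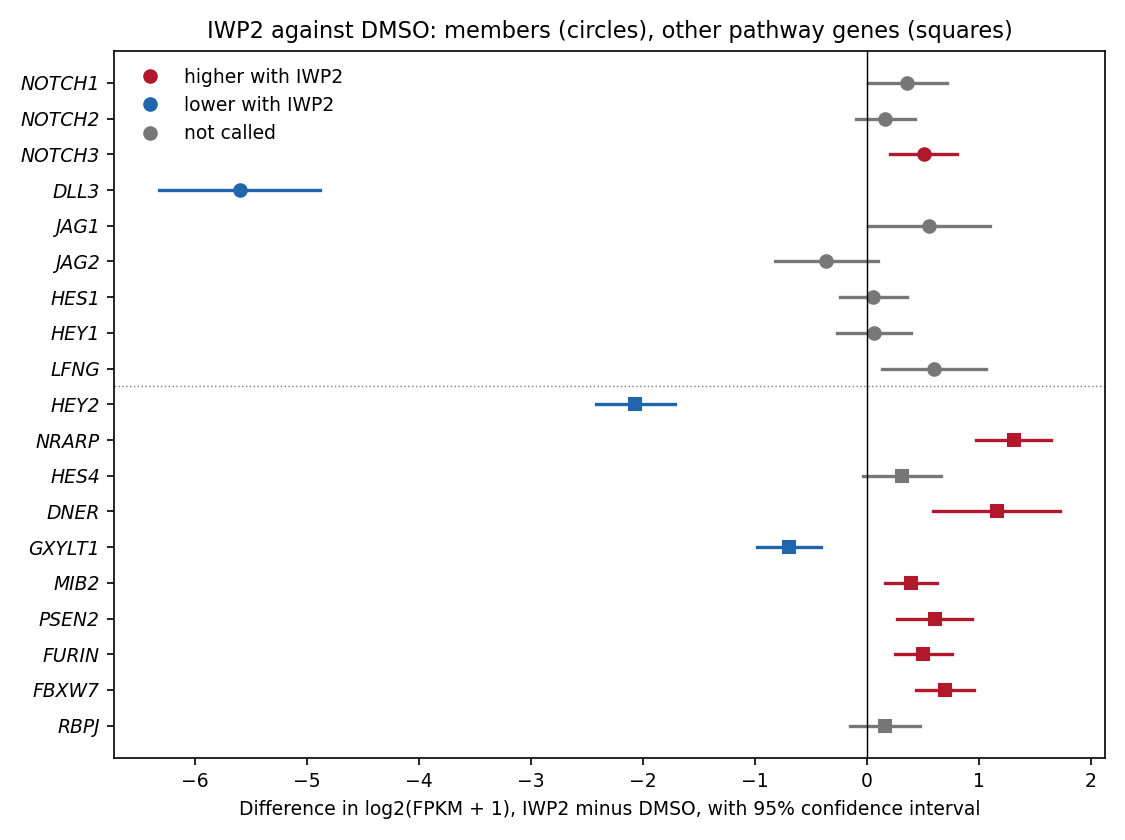
Difference in log2(FPKM + 1), IWP2 minus DMSO, for the 9 tested members (circles) and 10 other pathway genes named in the text (squares), with bars for the 95% confidence interval from limma. Red marks genes called higher, blue genes called lower and grey genes not called. DLL3 at -5.60 and HEY2 at -2.06 stand far to the left, while the other genes lie between -0.69 and 1.31.

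DLL3 was set beside 9 other genes of the presomitic mesoderm and the segmentation clock. Of these, 4 were tested and all 4 were lower with IWP2, beside 8.45% of all genes tested. MESP1 and MESP2 reached the minimum mean only through the DMSO libraries. The other 5 were under the minimum mean and were not tested. MSGN1, RIPPLY1 and HES7 lay lower with IWP2 without overlap, while the groups overlapped for RIPPLY2 and PCDH8. MESP1, a transcription factor of the first cardiac and blood mesoderm, had 47.6 and 74.6 FPKM in DMSO and 0.244 and 0.0870 FPKM with IWP2 (-5.70, limma adjusted p = 0.000393). MESP2, which sets segment borders, had 15.5 and 20.6 FPKM, then 0.306 and 0.120 FPKM (-3.96, limma adjusted p = 0.000592). TBX6, a T-box factor of presomitic mesoderm, had 8.78 and 11.8 FPKM, then 1.96 and 2.26 FPKM (-1.85, limma adjusted p = 0.00382, 0.0682 and 0.0645 without IWP2 replicates 1 and 2, and 0.0631 with no filter on low values). T, which encodes Brachyury, was lower by a smaller amount, at 21.6 and 18.5 FPKM, then 9.40 and 10.4 FPKM (-0.94, limma adjusted p = 0.00889). DLL3 was close in level to MESP1 in both groups, whereas the values of LFNG and DLL1, of the same clock, lay higher with IWP2 than in DMSO, with LFNG not called and DLL1 not tested. The 4 largest differences among the 11 Wnt target and feedback genes were those of SP5 (-5.22), LGR5 (-4.54), DKK1 (-4.24) and NKD1 (-4.12), beside a median of -1.16 over the list and differences of -0.17 for RNF43 and 0.19 for ZNRF3, which were not called.

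**Figure D4:**
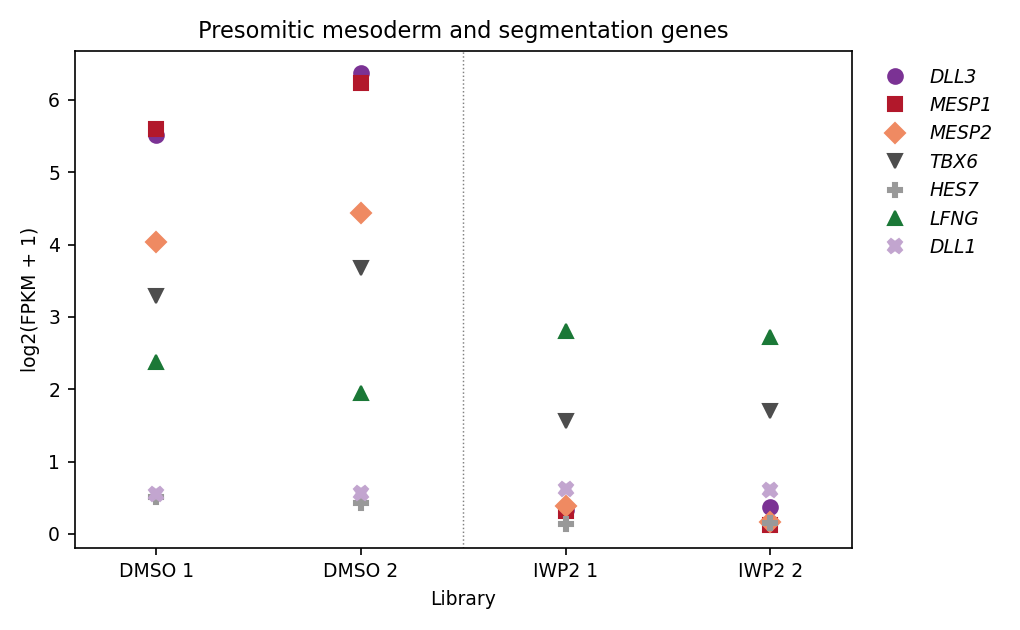
log2(FPKM + 1) of 7 presomitic mesoderm and segmentation genes in each of the 4 libraries, 1 symbol for each gene and library, with no error bars. DLL3 and MESP1 lie together at the top in both DMSO libraries and near 0 in both IWP2 libraries, with MESP2 and TBX6 below them in DMSO, while LFNG is higher in the IWP2 libraries and DLL1 stays below 1 throughout.

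The genes whose profile was most like a called member were sought by the Euclidean distance between log2(FPKM + 1) profiles, centred for each gene, over the 4 libraries. For DLL3 the nearest was MESP1 (distance 0.25), followed by AL139099.5 (0.35) and CER1 (0.39), a secreted inhibitor of Nodal, BMP and Wnt at 1612 and 2048 FPKM in DMSO and 38.6 and 34.2 FPKM with IWP2. AL139099.5 lies over the 7SL RNA gene RN7SL1, listed at 9404 to 15747 FPKM, so its value is uncertain. For NOTCH3 the nearest were LTBP3 (0.03), a latent TGF-β binding protein, TNNI3 (0.05), cardiac troponin I, and ITGAV (0.05), the integrin αV subunit. With 4 libraries in 2 groups, such likeness mostly reflects the size of the group difference.

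The order of levels also differed between the groups. In DMSO, DLL3 (mean 63.2 FPKM) stood above NOTCH3 (30.4) and HES1 (26.1), and these 3 did not overlap in range. NOTCH2 (10.7), JAG1 (10.1) and NOTCH1 (9.26) followed, with overlapping ranges between neighbours, then HEY1 (5.31), JAG2 (3.82) and LFNG (3.52), the latter 2 overlapping, and DLL1 (0.476). With IWP2, NOTCH3 (43.7) came first, followed by HES1 (27.2) and JAG1 (14.95), then NOTCH1 (12.2) and NOTCH2 (12.1), which overlapped, LFNG (5.77) and HEY1 (5.58), which overlapped, JAG2 (2.78), DLL1 (0.535) and, in last place, DLL3 (0.273).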

How the data were processed

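RNA was extracted with Trizol and sequenced from TruSeq libraries of H1 cells at day 2. The authors deposited 1 table of FPKM values (58365 rows, 1 column per library, not pooled). Columns marked with a minus sign before IWP2 were taken as the DMSO group, numbered as in the column names, and those with a plus sign as the IWP2 libraries. The submitters' processing notes name BWA, Bowtie, RSEM and hg19, with no roles or versions given in the sources used here. The coordinates in the table are those of GRCh38, with starts counted from 0: 97.4% of 56338 symbols found in GENCODE 29 by gene ID had the same position, and starts are printed here counted from 1.

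For a repeated symbol the row with the highest mean was kept (56595 symbols). Genes with a mean of at least 1 FPKM over the 4 libraries were tested as log2(FPKM + 1) with limma 3.58.1 (R 4.3.3; lmFit, eBayes with a mean-variance trend, group as the only term) and Benjamini-Hochberg adjustment over 14010 genes. The code was tested on simulated data. A pseudocount of 1 understates the change of low genes. An exact permutation test of 2 against 2 libraries cannot go below p = 0.333 and was not used. Depth was estimated from the value of 1 fragment in genes with 1 annotated transcript over 2000 bases and values under 0.2 FPKM. Fragment numbers cover counting error only.

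The members and lists were chosen with earlier results of these data known. T is on 3 of the lists, and MESP1 and TBX6 on 2. The members DLL1, DLL3 and LFNG are also on the presomitic list, and HES7 is on that list and among the other target genes. Named were all 10 members, called genes of each pathway list (up to 4), 8 further pathway genes whatever their values (NOTCH4, DLL4, RBPJ, HES4, HES5, HES7, HEY2 and NRARP), and the 4 largest differences in the presomitic and Wnt lists. T, RNF43, ZNRF3, POU5F1, KDR, AL139099.5's neighbour RN7SL1, SOX2, SOX1, OTX2 and the uncalled genes listed by name fall outside this rule and were added after their values were seen. The same holds for LEF1, TDGF1, PDGFRA, SNAI2, FOXA2, HHEX, TIE1, MSGN1, RIPPLY1, RIPPLY2 and PCDH8. The 2 promoter motifs were also chosen then.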

Additional observations from a re-analysis of the deposited data

How the results depend on the processing

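The DLL3 call held in all 11 alternative fits, and its difference ranged from -7.35 (pseudocount 0.1) to -5.17. With no filter on low values (28846 genes tested), 118 genes were called higher and 266 lower, 0 members higher, 0 other pathway genes higher and 1 lower, and NOTCH3 was at 0.51 (adjusted p = 0.149). Without the mean-variance trend, 0 members and 3 other pathway genes were called higher and NOTCH3 was at 0.51 (adjusted p = 0.0789). Other pseudocounts, a minimum mean of 5 FPKM and median-of-ratios scaling changed no member's call; JAG2, LFNG, HES4 and DNER are below that minimum. With a pseudocount of 0.1, DNER was at 2.35 and not called (adjusted p = 0.0525).

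Leaving out each library in turn makes the remaining library of its group count as varying like the other group, with 1 residual degree of freedom. All genes called higher then numbered 62 to 662 and lower 181 to 722, from 949 and 1184. Members called numbered 0 to 1 higher (the 1 being JAG1, without DMSO replicate 1) and 1 lower throughout, and other pathway genes 0 to 3 higher and 1 to 2 lower. Differences ranged from 0.41 to 0.61 for NOTCH3, 0.25 to 0.86 for JAG1, -0.0437 to 0.163 for HES1 and -0.00702 to 0.132 for HEY1, the last 2 crossing 0. The cause of these changes, beyond fewer samples or more genes tested, was not tested.

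Replicate numbers are shared between groups, but nothing says that they mark a shared culture (for DMSO the number is the column's), and deviations of same-numbered libraries correlated at 0.1475. With the replicate block, 863 genes were called higher and 1068 lower, 1 member higher and 1 lower. MIB2 lost its call (adjusted p = 0.0702), and no member and no other pathway gene named in the text changed its call. The table gives no counts, so low levels such as those of DLL1, HES7 and DLL3 with IWP2 rest on estimated fragment numbers.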

Other observations

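Among the 13 other pathway genes under the minimum mean, HES5 at 0 included, the groups did not overlap for 10, 4 higher and 6 lower with IWP2. This was 76.9%, beside 32.8% of all 14836 symbols above 0 and under this minimum. Those symbols exclude genes at 0 and were not matched in level, so the 2 shares are not a like comparison. Of the 43 pathway genes tested, 16 were higher and 11 lower without overlap, beside 59.9% of all genes tested in either direction. The genes under the minimum mean were picked out after their values were seen and were not tested. MFNG, the Manic fringe relative of LFNG, was at 0.123 and 0.134 FPKM in DMSO and 0.511 and 0.552 FPKM with IWP2. NEURL1, a ubiquitin ligase for Notch ligands, was at 0.0860 and 0.0481 FPKM in DMSO and 0.378 and 0.408 FPKM with IWP2. MAML2, a coactivator, was at 0.796 and 0.639 FPKM, then 0.978 and 0.985 FPKM. HES3 was listed at 0 in DMSO and at 0.0901 and 0.107 FPKM with IWP2. For so short a gene these values rest on very few fragments, so its place on the higher side is uncertain. On the lower side, HES2 was at 1.02 and 0.356 FPKM in DMSO and 0.0297 and 0.0229 FPKM with IWP2, and HEYL lay on the same side. The non-canonical ligand DLK1, a secreted and membrane-bound inhibitor of differentiation, was at 1.11 and 0.882 FPKM in DMSO and 0.516 and 0.260 FPKM with IWP2. DLK2, NOTCH4 and HES7 completed this side.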
